A study of Arabidopsis thaliana with 8 samples.

Results

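CT runs are stretches of the dinucleotide CT repeated end to end, and the cytosines described here are the differentially methylated cytosines (DMCs) that lie in such runs. A run was any unbroken stretch of 4 or more CT units, read 5′ to 3′ on the strand that the DMC list names, and every listed cytosine of a run was taken. Of the 71531 rows in 6 DMC lists, 70564 lay on a nuclear cytosine, and 3473 of these lay in a CT run. They fell on 2065 distinct cytosines in 324 runs, out of 98649 cytosines in the 20252 runs of the TAIR10 genome. The rule used the sequence and the strand, not the p-values or the lines.

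The lists came from Arabidopsis thaliana plants of 2 recombinant inbred lines, CVL125 and CVL39, each of which carries a mixture of Ler and Cvi chromosome segments. In each line 3 populations had passed through 5 generations of selection in the landscapes D1, D5 and D6 and then through 2 generations without selection, and each was sampled as pooled DNA of the above-ground parts of 4 plants aged 25 days. The number of plants follows the design description; the growth description of the samples speaks of a single plant per tube, and which holds for a library could not be settled here. Each selected pool was compared with the single ancestral pool of its own line, grown to the same age, so that the 3 lists of a line share their comparison pool and differ only in the selected pool. A list gives the strand, position and unadjusted p-value of each cytosine at a p of up to 0.05, with no read count, methylation level or direction. A listed cytosine is therefore one that passed this unadjusted threshold, and whether its methylation was higher or lower after selection is not known.

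Bisulfite sequencing reads an unmethylated cytosine as thymine and leaves a methylated one as cytosine. Plants methylate cytosines in the CG, CHG and CHH contexts (H being A, C or T), and CHH methylation, which has no cytosine on the opposite strand to copy from, is laid down by the RNA-directed pathway and by CMT2. Every cytosine inside a CT run is followed by T and C and is thus in the CHH context, except the last one, whose context depends on the next base. CT runs, which read as GA on the other strand, are common near plant transcription start sites and in 5′ UTRs, where the GA strand is bound by the BASIC PENTACYSTEINE (BPC) factors.

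The 5′ UTR of AT1G10610, which encodes a basic helix-loop-helix (bHLH) DNA-binding protein, held 2 of these runs, and a window over the shorter one is shown because every list held part of it. The window is chr1:3506434-3506463 on the minus strand of TAIR10 and the gene is on the plus strand. Letters are in lower case and each listed cytosine is in capitals.
Reference: tctcactctctctctctctctctctcactc
CVL125 D1: tctcactCtCtCtCtCtCtCtCtCtcactc
CVL125 D5: tctcaCtCtCtCtCtCtCtCtCtCtcactc
CVL125 D6: tctcaCtCtCtCtCtCtCtCtCtCtcactc
CVL39 D1: tctcaCtctCtCtCtctCtctCtCtcactc
CVL39 D5: tctcactctCtctCtCtCtCtCtCtcactc
CVL39 D6: tctcactctctctCtCtCtctctctcactc
The capitals fill nearly the whole run in CVL125 and thin out in CVL39.

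A run in an intron of PNG1 (AT5G49570), which encodes peptide-N-glycanase 1, an enzyme that removes N-linked glycans from misfolded glycoproteins, is shown because it was listed in all 3 CVL39 populations and in 1 of CVL125. The window chr5:20116012-20116041 on the minus strand, the strand of the gene, is the first part of a run of 20 CT.
CVL125 D1: ctCtCtCtCtCtctCtCtCtCtCtCtCtct
CVL39 D1: CtCtCtctCtCtCtCtctCtCtctctCtCt
CVL39 D5: CtCtCtCtCtCtCtCtCtCtCtCtCtCtCt
CVL39 D6: CtCtCtctctctCtCtctctctctCtctct
The lists of CVL125 D5 and D6 held no cytosine of this window.

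Another run, chr3:12770833-12770862 on the plus strand, lies downstream of AT3G31402, a gene for a zinc finger protein related to general transcription factor 2. It is shown, chosen after its values were seen, because only CVL125 lists held it, all 3 of them.
CVL125 D1: ctctctctCtCtCtCtCtCtCtCtCtCtCt
CVL125 D5: ctctctCtCtctCtCtCtCtCtctCtctCt
CVL125 D6: ctctctCtCtCtCtCtCtCtCtCtctCtCt
The cytosines at the 5′ end of this run stayed unlisted in each of them.

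CT runs hold 0.230% of the nuclear cytosines but took up 10.1% of the DMCs of CVL125 D1, 9.81% of CVL125 D5 and 2.32% of CVL125 D6, against 1.69% of CVL39 D1, 2.56% of CVL39 D5 and 1.11% of CVL39 D6. In counts, the runs held 1269 of 12563 DMCs in CVL125 D1 (exact 95% binomial interval 9.58% to 10.6%), where 0.0293% of all nuclear cytosines were listed. They held 1380 of 14074 in CVL125 D5 (9.32% to 10.3%; 0.0328% of all nuclear cytosines listed) and 169 of 7297 in CVL125 D6 (0.017% listed). In CVL39 they held 190 of 11266 in D1 (0.0263% listed), 323 of 12614 in D5 (0.0294% listed) and 142 of 12750 in D6 (0.0297% listed). The intervals cover counting error only. CVL125 D1 and D5 lie above the other 4 lists, and CVL125 D6, the shortest list, lies inside the CVL39 range.

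**Figure D1:**
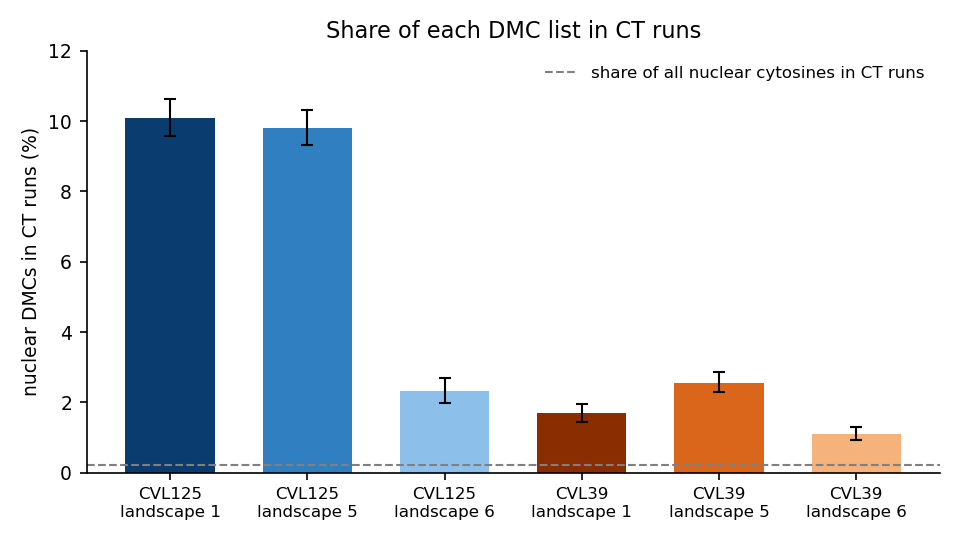
Share of the nuclear DMCs of each list that lie in CT runs (bars, %), with exact 95% binomial intervals (lines), for the landscapes 1, 5 and 6 of each line, and the share of all nuclear cytosines that the runs hold (dashed line, 0.230%). CVL125 landscapes 1 and 5 reach 10.1% and 9.81%, and the other lists lie between 1.11% and 2.56%.

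The share averaged 7.41% ± 4.41 in CVL125 and 1.79% ± 0.729 in CVL39 (SD, n = 3 each), a difference of 5.62 percentage points that did not pass an exact two-sided permutation test over populations (p = 0.2, adjusted p = 0.4 over 6 comparisons between the lines). With 3 against 3 populations this test cannot go below 0.1. Each line also has its own single ancestral pool. A difference between the lines therefore cannot be told apart from a difference between these pools, here and in the other comparisons between lines. Without landscape D6 in both lines the difference was 7.83 points (exact permutation p = 0.333, the smallest that 2 against 2 allow). All but 9 of the 3473 listings were in the CHH context, and those 9 were CHG cytosines at the end of a run. The runs hold 0.305% of the genome's CHH cytosines.

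Taken over all lengths, run cytosines were listed more often than the cytosines beside them in every list. The rate in CVL125 was 1.29% of run cytosines in D1, 1.40% in D5 and 0.171% in D6, against 0.0605%, 0.0740% and 0.0301% of the cytosines on the same strand within 50 bp of a run. In CVL39 the rate was 0.193% in D1, 0.327% in D5 and 0.144% in D6, against 0.0325%, 0.0455% and 0.0318% in the flanks. The rate was higher in runs in 6 of 6 lists, by 0.541 percentage points on average (exact two-sided sign-flip permutation test over the lists, p = 0.031, the smallest this test can give, adjusted p = 0.0547 over 7 comparisons within lists). Since 1 ancestral pool serves all 3 lists of a line, the 6 differences are not fully independent, here and in the other comparisons within lists. The runs of 4 or 5 CT, which hold 72.9% of the run cytosines, were above the flanks in 4 lists and below them in CVL125 D6 (0.0223% against 0.0301%) and CVL39 D1 (0.0195% against 0.0325%). The flank cytosines were of any context, whereas nearly all run cytosines are CHH. CHH cytosines outside runs were listed at 0.0121%, 0.0125% and 0.00882% in CVL125 D1, D5 and D6. In CVL39 D1, D5 and D6 their rates were 0.0123%, 0.0129% and 0.0132%. The runs of 4 or 5 CT were above these CHH rates in every list.

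Repeats of other units that hold a cytosine had lower rates than CT runs of all lengths together. Runs of CA (4 or more units) and of CTT (3 or more units) together had a mean listing rate of 0.0436% ± 0.0184 over the lists, against 0.587% ± 0.590 in CT runs (SD, n = 6 lists), and the CT rate was higher in 6 of 6 lists (exact sign-flip permutation p = 0.031, adjusted p = 0.0547). In CVL125 D1, 5 of 37129 CA cytosines and 76 of 78210 CTT cytosines were listed, and in CVL39 D6 14 and 29 were. Lengths were not matched in this comparison, and the runs of 4 or 5 CT alone averaged 0.0584%, above the CA and CTT rate in 4 lists and below it in CVL125 D6 (0.0223% against 0.0243%) and CVL39 D1 (0.0195% against 0.0373%).

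Long runs held a DMC far more often than short ones. Of 14134 runs of 4 CT, 73 (0.516%) were listed in at least 1 population, and of 3070 runs of 5 CT, 37 (1.21%) were. The share was 7.25% among 262 runs of 10 to 14 CT, 36.2% among 58 runs of 15 to 19 CT and 85.7% among 49 runs of 20 to 29 CT. It reached 96.2% both among the 53 runs of 30 to 49 CT and among the 26 longer ones. Of the 128 runs with 20 or more CT, 118 held a DMC. Long runs hold more cytosines and so more chances to be listed, but the rate per cytosine was also higher in long than in short runs. Runs of 10 or more CT had 5.69% ± 6.01 of their cytosines listed, against 0.0584% ± 0.0411 in runs of 4 or 5 CT (SD, n = 6 lists). The longer class was higher in 6 of 6 lists (exact sign-flip permutation p = 0.031, adjusted p = 0.0547). Among the longest runs the rate per cytosine did not keep rising. In CVL125 D1 it was 23.7% at 30 to 49 CT and 12.1% at 50 or more CT. In CVL125 D5 the values were 26.1% and 12.9%. Every CVL39 list also fell between these classes, whereas CVL125 D6 rose from 1.33% to 3.33%. All lengths are those of TAIR10, and the lengths in Ler, Cvi and the lines were not analysed here.

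**Figure D2:**
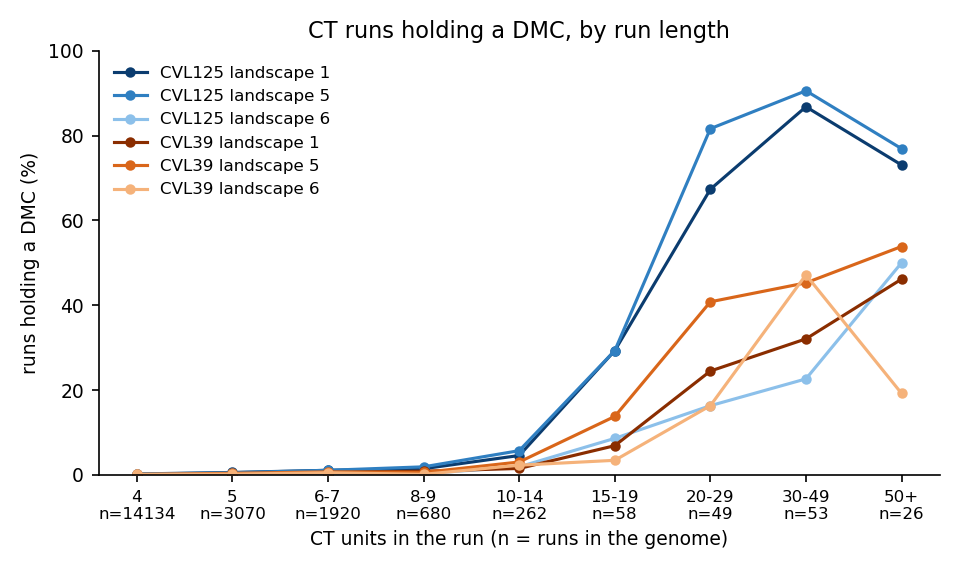
Runs holding at least 1 DMC (%, vertical axis) by the number of CT units (horizontal axis, with the number of runs in the genome), 1 line per list. Every list lies under 2% up to 9 CT, and at 20 to 29 CT the lists of CVL125 landscapes 1 and 5 reach 67.3% and 81.6%.

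The lists of CVL125 D1 and D5 stood apart from the others mainly in the long runs. Among the 128 runs of 20 or more CT, 98 held a DMC in CVL125 D1, 108 in D5 and 33 in D6, against 41 in CVL39 D1, 58 in D5 and 38 in D6. Of the 4951 cytosines of these runs, 19.3% were listed in CVL125 D1, 21.5% in D5 and 1.98% in D6, against 2.71%, 4.24% and 1.74% in CVL39 D1, D5 and D6. In runs of 4 to 9 CT the same shares were 0.171%, 0.146% and 0.0323% in CVL125 and 0.0412%, 0.0679% and 0.0490% in CVL39. In both length classes D1 and D5 of CVL125 were the highest and CVL125 D6 lay beside or below CVL39.

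Runs with at least 1 DMC numbered 208, 215 and 65 in CVL125 D1, D5 and D6 and 80, 122 and 83 in CVL39 D1, D5 and D6, a difference of 67.7 runs between the line means (exact permutation p = 0.4, adjusted p = 0.6). It was 37.5 runs without landscape D1 and 110.5 without D6. A listed run held 6.10, 6.42 and 2.60 DMCs on average in CVL125 D1, D5 and D6, against 2.38, 2.65 and 1.71 in CVL39 D1, D5 and D6 (difference 2.80, exact permutation p = 0.2, adjusted p = 0.4). The most in a single run was 34 in CVL125, in D1, and 20 in CVL39, in D1. Runs with 10 or more DMCs numbered 49 and 61 in CVL125 D1 and D5 and 5 in D6, against 3, 7 and 0 in CVL39.

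The p-values of run DMCs were smaller than those of other CHH DMCs in the same lists of CVL125. The median was 0.00699 in CVL125 D1, 0.00726 in D5 and 0.0277 in D6, against 0.0286, 0.0286 and 0.0310 for other CHH DMCs, and in CVL39 it was 0.0273, 0.0225 and 0.0264 against 0.0286 in each list. The share with a p of up to 0.005 was 44.6%, 44.3% and 12.4% in CVL125 and 12.6%, 11.8% and 5.63% in CVL39 (difference 23.8 points, exact permutation p = 0.2, adjusted p = 0.4). Against other CHH DMCs it was higher in 5 of 6 lists, by 12.1 points on average (exact sign-flip permutation p = 0.1875, adjusted p = 0.2625). Among the 100 smallest p-values of a list, 82 lay in CT runs in CVL125 D1, 89 in D5 and 5 in D6, against 1, 1 and 0 in CVL39 D1, D5 and D6, and the 82 and the 89 came from 19 and 21 runs. The smallest run p was 1.34e-11, in CVL125 D5. If the p-values came from Fisher's exact test, which the sources used here do not state, that value needs at least 40 reads over both pools.

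Neighbouring DMCs had the same p-value less often in runs than outside them. Of pairs of listed cytosines 2 bp apart, 15.3% ± 4.12 had equal p in runs, against 32.0% ± 9.56 outside runs (SD, n = 6 lists), and the share was lower in runs in 6 of 6 lists (difference −16.7 points, exact sign-flip permutation p = 0.031, adjusted p = 0.0547). The pairs outside runs, counted only where both cytosines were CHH, numbered 49 to 108 a list. The pairs in runs numbered from 31 in CVL39 D6, where 3 had equal p, to 959 in CVL125 D5. Most runs with 2 or more DMCs had unlisted cytosines between them, and 17.2% to 38.5% of such runs in a list had no gap. The longest unbroken stretch was 33 cytosines in CVL125 D1, in a run of 36 CT, 22 in D5 and 12 in D6, against 20, 16 and 9 in CVL39 D1, D5 and D6.

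The inner part of very long runs held no DMC. In runs of 20 or more CT, the deepest listed cytosine was number 23 from the nearest run end, or 46 bases, in 5 lists and number 21, or 42 bases, in CVL125 D6. None of the 260 cytosines numbered 31 to 49 from both ends was listed in any list. In CVL125 D1 the share listed was 16.9% at numbers 1 to 5, 27.7% at 16 to 20 and 3.94% at 21 to 30, and in CVL39 D5 it was 4.06%, 5.71% and 1.69%. Since the lists hold no coverage, whether those inner cytosines had reads cannot be told from them.

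**Figure D3:**
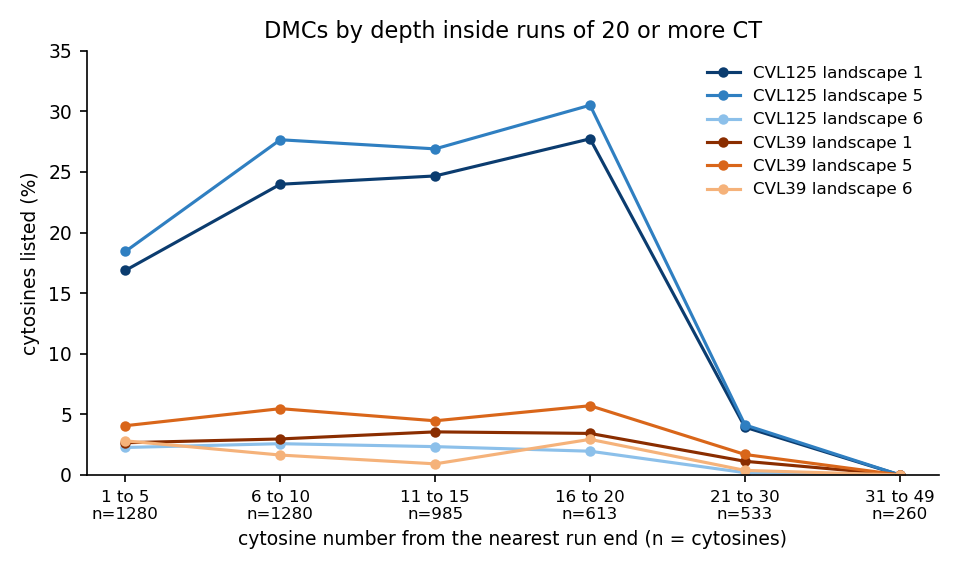
Cytosines listed (%, vertical axis) by their number from the nearest end of a run of 20 or more CT (horizontal axis, with the number of cytosines), 1 line per list. All lists fall to 0 at numbers 31 to 49, and CVL125 landscape 5 is the highest at 30.5% for numbers 16 to 20.

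The 2 sides of a run did not differ in rate beyond the spread between lists. On the 5′ side of the middle of a run the mean rate was 0.591%, and on the 3′ side it was 0.603%, the 5′ side being higher in 3 of 6 lists (exact sign-flip permutation p = 0.656, adjusted p = 0.656). The middle cytosine of a run with an odd number of CT was left out. Of the other run DMCs, the 5′ side held 48.6% ± 2.30 in CVL125 and 50.6% ± 4.25 in CVL39 (SD, n = 3 populations of each line), a difference of −1.98 points (exact two-sided permutation p = 0.7, adjusted p = 0.7).

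By the annotation, 120 of the 324 listed runs (37.0%) lay in a 5′ UTR, against 31.4% of all runs. Introns held 43 (13.3%, against 12.5% of all runs) and coding sequence 11 (3.40%, against 20.2%). Pseudogenes and other transcripts held 17 (5.25%, against 6.77%), and 90 (27.8%, against 10.4%) lay in neither these nor a protein-coding gene with 1 kb on each side. The order within these places differed with length: of runs of 4 to 9 CT, 66 of 6155 in 5′ UTRs (1.07%) and 100 of 13649 elsewhere (0.733%) were listed, and of runs of 10 or more CT 54 of 213 in 5′ UTRs (25.4%) and 104 of 235 elsewhere (44.3%) were. The longer runs of 5′ UTRs were the shorter ones of their class, with a median of 12 CT against 15 elsewhere. In runs of 20 or more CT the shares were 32 of 35 and 86 of 93. The group with 90 listed runs had 43 of 46 listed at 20 or more CT and 40 of 2022 (1.98%) at 4 to 9 CT. The shares of places given first were not matched for length.

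Per cytosine, the rate in 5′ UTR runs exceeded that in other runs by 0.0255 points on average, in 3 of 6 lists (exact sign-flip permutation p = 0.469, adjusted p = 0.547). With a minimum of 6 CT the difference was −1.11 points, lower in the 5′ UTR in 6 of 6 lists (exact sign-flip permutation p = 0.031, adjusted p = 0.0469), whereas with a minimum of 3 CT it was 0.159 points and on the chromosome arms alone 0.338 points, both higher in the 5′ UTR in 6 of 6 lists (exact sign-flip permutation p = 0.031 each, adjusted p = 0.0438 and 0.0547). The share of listed runs in 5′ UTRs was 36.1% ± 4.63 in CVL125 and 39.5% ± 2.70 in CVL39 (SD over 3 populations of each line), with an exact permutation p = 0.5 (adjusted p = 0.6). On the strand of the gene, 90 of the 120 listed 5′ UTR runs (75%) read CT, against 69.5% of all 5′ UTR runs, and 42 of the 43 listed intron runs (97.7%) did, against 87.0% of all intron runs.

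The short runs that were listed stood in pyrimidine-rich surroundings. Around the 110 listed runs of 4 or 5 CT, the 50-bp flanks were 74% pyrimidine (median), against 56% around 17094 unlisted ones, and 56.4% against 9.97% had another CT run within 50 bp. Of those listed, 43.6% lay within 3 Mb of a centromere, against 18.7% of those unlisted. Among runs of 10 or more CT the flanks were closer, at 61.5% pyrimidine for the 158 listed and 57% for the 290 unlisted, and the pericentromeric shares were 38.0% and 11.4%.

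Of the 324 listed runs, 124 held a DMC in both lines, which is 47.5% of the 261 listed in CVL125 and 66.3% of the 187 listed in CVL39. They were the long ones: 81 of the 124 had 20 or more CT, the median was 25 CT, and the runs of 1 line only had a median of 6 CT. Of the 128 runs of 20 or more CT, 63.3% were listed in both lines, 32 in CVL125 only and 5 in CVL39 only. With 118 of these 128 runs listed at all, a large overlap follows from the listing rates alone, and an excess over it was not tested. By cytosine, 260 were listed in both lines, 14.6% of the 1782 of CVL125 and 47.9% of the 543 of CVL39, whereas for other CHH cytosines 349 were shared, 3.87% of 9007 in CVL125 and 3.25% of 10737 in CVL39. Run cytosines were also listed more often in each list (1.29% against 0.0121% in CVL125 D1, 0.144% against 0.0132% in CVL39 D6). A higher listing rate by itself raises the shared part, so these shares are not on an equal footing. With a p of up to 0.005, 18 runs were listed in both lines.

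The counts in the named runs that follow depend on the p-value threshold: with a p of up to 0.005, 26 of the 30 runs fell by more than 1.5 times, though each kept at least 1 DMC.

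AT1G10610 held the 3 cytosines that were listed in all 6 populations. Its run of 10 CT, chr1:3506439-3506458, held 9, 10 and 10 DMCs in CVL125 D1, D5 and D6 and 7, 7 and 3 in CVL39 D1, D5 and D6. The adjacent run of 12 CT, chr1:3506413-3506436, held 1, 10 and 7 in CVL125 and 2, 2 and 2 in CVL39. With a p of up to 0.005 the run of 10 CT kept 3, 9 and 6 in CVL125 D1, D5 and D6, against 1, 0 and 0 in CVL39. Both lie in the 5′ UTR and read CT on the strand opposite to the gene. At position 3506450 the p-value was 2.68e-04, 5.16e-05 and 5.57e-05 in CVL125 D1, D5 and D6 and 7.29e-04, 0.00762 and 0.0395 in CVL39 D1, D5 and D6.

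The PNG1 run of 20 CT, chr5:20116002-20116041, held 15 DMCs in CVL125 D1 and none in D5 or D6, against 14, 18 and 6 in CVL39 D1, D5 and D6. It was the run with the most DMCs in CVL39. Its highest population was CVL39 D5, and the lines overlapped through CVL125 D1. With a p of up to 0.005 it held 15 DMCs in place of 53, as 3, 0 and 0 in CVL125 and 1, 10 and 1 in CVL39.

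**Figure D4:**
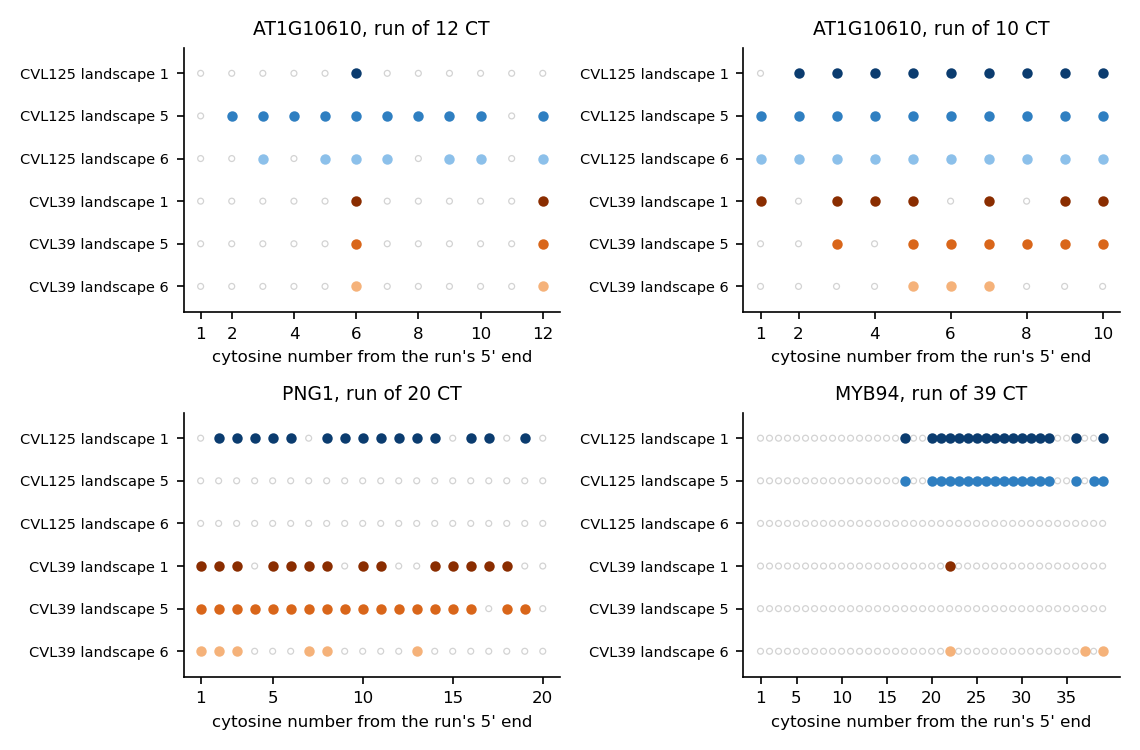
Cytosines listed (filled points) and not listed (open points) along 4 runs, by their number from the 5′ end of the run (horizontal axis), 1 row per list with CVL125 above CVL39. The AT1G10610 run of 10 CT has filled points in every row, PNG1 has no filled point in CVL125 landscapes 5 and 6, and in MYB94 the filled points start at number 17.

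Runs in 5′ UTRs made up most of the other named genes. MYB94, a MYB factor that promotes cuticular wax synthesis, had 39 CT across its transcription start and 17, 18 and 0 DMCs in CVL125 D1, D5 and D6, against 1, 0 and 3 in CVL39, and held the smallest run p of all. AT3G55960, for a haloacid dehalogenase-like hydrolase, had 49 CT with 23, 25 and 1 against 0, 3 and 0, and AT4G38760, for a nucleoporin, had 27 CT with 25, 19 and 1 against 0, 1 and 1. In these genes CVL125 D1 and D5 were high and the other 4 lists near 0.

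Other 5′ UTR runs were also high in a CVL39 list. AT3G05320, for an O-fucosyltransferase family protein, had 20 CT with 18, 20 and 1 DMCs in CVL125 D1, D5 and D6, against 0, 13 and 1 in CVL39. AT2G43800, for a formin, a protein that nucleates actin filaments, had 25 CT with 10, 13 and 0 against 20, 0 and 0. AT1G63480 and AT4G17950, both for AT-hook DNA-binding proteins, had 1, 12 and 0 against 0, 10 and 4, and 18, 18 and 0 against 1, 8 and 0. In each of these runs the lines overlapped.

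Of the named runs, 2 had only 7 CT. SEU, for the SEUSS transcriptional co-regulator that acts in flower development, had a 5′ UTR run of 7 CT with 1, 3 and 1 DMCs in CVL125 D1, D5 and D6 and 3, 1 and 1 in CVL39. AT3G08600, for a putative transmembrane protein, had 7 CT with 3, 3 and 2 against 1, 1 and 1. With a p of up to 0.005 the SEU run kept 3 of 10 DMCs and the AT3G08600 run 1 of 11.

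Among the longer runs, PC-MYB1 (AT4G32730), for a MYB-type protein, had 23 CT with 11, 10 and 1 against 2, 2 and 1. In the intron of GCN2, the kinase that phosphorylates eIF2α upon amino acid shortage, a run of 55 CT had 11, 16 and 12 against 2, 2 and 1, and so was high in all 3 CVL125 lists, but with a p of up to 0.005 it held 6, 10 and 0 against 0, 1 and 0.

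The run with the most DMCs was not in or near a gene. It lies at chr2:6738474-6738545, has 36 CT and held 34, 29 and 1 DMCs in CVL125 D1, D5 and D6, against 5, 1 and 4 in CVL39 D1, D5 and D6. Near pseudogenes, a run of 56 CT by AT4G04590 held 33, 29 and 1 against 0, 3 and 0, a run of 60 CT by AT3G31406 held 27, 21 and 12 against 1, 0 and 0, and a run of 70 CT by AT2G11780 held 27, 28 and 1 against 0, 0 and 0. The run downstream of AT3G31402 held 11, 9 and 11 against 0, 0 and 0. Whether reads of these repeats were placed uniquely was not tested.

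**Figure D5:**
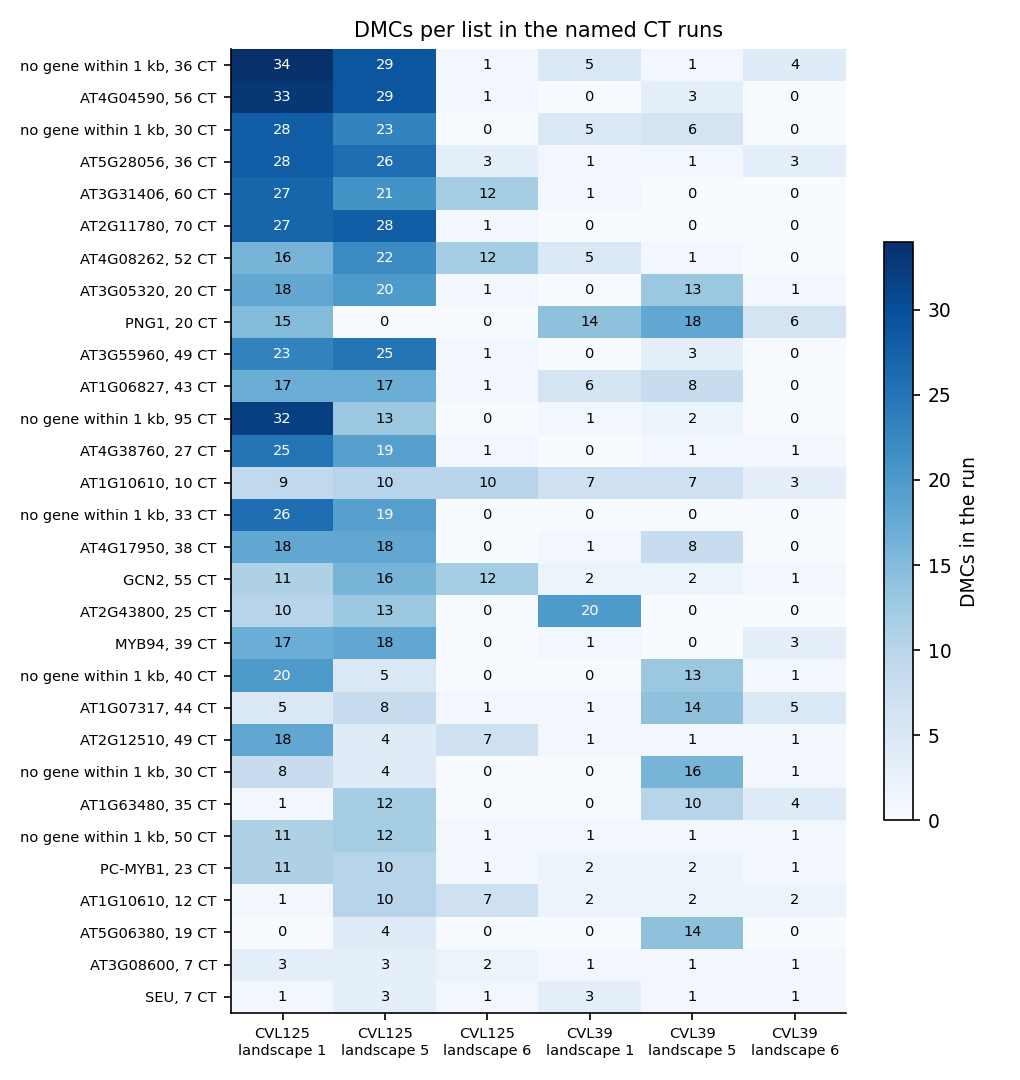
DMCs per run (number and shade) in the 30 named CT runs (rows, by locus name and CT units) and the 6 lists (columns, CVL125 left of CVL39). CVL125 landscapes 1 and 5 hold up to 34 and 29 DMCs, and the AT1G10610 run of 10 CT holds 3 to 10 in every column.

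Further genes with long runs, chosen after their values were seen, showed the same range. PSS1, for a phosphatidylserine synthase, had a 5′ UTR run of 20 CT in which all 20 cytosines were listed in both CVL125 D1 and D5 and none in D6, against 0, 1 and 0 in CVL39 D1, D5 and D6. MYB23, a regulator of trichome development, had a 5′ UTR run of 40 CT with 16, 16 and 0 DMCs in CVL125, against 0, 0 and 1 in CVL39. GRF5, a growth-regulating factor that promotes leaf growth, had a 5′ UTR run of 21 CT with 13, 18 and 0 against 1, 0 and 0. In these runs CVL125 D6 was at 0 and no CVL39 list held more than 1 DMC.

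Runs outside the 5′ UTR gave similar values. In the 3′ UTR of OMR1, which encodes threonine deaminase of isoleucine synthesis, a run of 31 CT held 10, 22 and 1 DMCs in CVL125 D1, D5 and D6, against 0, 0 and 0 in CVL39, with a smallest p of 3.75e-10. An intron run of 45 CT in LAZ5, a disease resistance gene, held 19, 21 and 0 against 2, 0 and 0. ROS3, whose product is an RNA-binding protein of the DNA demethylation pathway and which was not on the methylation gene list, had an intron run of 39 CT with 0, 12 and 0 against 0, 3 and 1. SQN, for a cyclophilin, differed from these in that its 5′ UTR run of 39 CT held 5, 4 and 0 in CVL125, against 11, 1 and 0 in CVL39, so that its highest list was CVL39 D1.

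Auxin response factor (ARF) genes, which encode transcription factors of the auxin response, were counted after the values were seen, and no test was made of the family. Of the 20 annotated ARF genes 18 held CT runs, 52 in all, and 17 of these runs were listed, where 1.60% of all runs of the genome were. The 17 lay in introns of 7 ARF genes of chromosome 1, which hold 31 runs, among them 4 in ARF15, 3 each in ARF12, ARF20 and ARF22, and 2 in ARF21. They held 64 DMCs in CVL125 lists and 25 in CVL39 lists. These genes are close paralogues, so their listings are uncertain. All 7 also lie within 3 Mb of the centromere. Stretches this near to a centromere held 43.6% of the listed runs of 4 or 5 CT but 18.7% of the unlisted ones. In ARF14 a run of 28 CT held 1, 5 and 5 DMCs in CVL125 D1, D5 and D6, against 0, 2 and 1 in CVL39, and in ARF23 a run of 68 CT held 0, 1 and 0 against 5, 1 and 0.

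Of 55 genes of flowering, clock and light, DNA methylation and GA-repeat binding, 46 had a CT run and 1 (1.82%) had a listed one, against 0.962% of all protein-coding genes. Of 16 flowering genes, 13 had a run within 1 kb and 1 had a listed one: SVP, a MADS-box repressor of flowering, whose 5′ UTR run of 4 CT held 1 DMC, in CVL39 D5. None was listed among 13 of 15 clock and light genes with a run, 11 of 15 DNA methylation genes, and 9 of 9 BPC factors and targets. Over the genome, 264 of 27444 protein-coding genes (0.962%) had a listed run within 1 kb and 14498 (52.8%) had any run. AGL31, a MADS-box gene of flowering that was not on the list, had a 5′ UTR run of 14 CT with 5, 2 and 1 DMCs in CVL125 D1, D5 and D6, against 0, 1 and 0 in CVL39.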

How the data were processed

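The samples were 8 bisulfite libraries, of which the 6 selected pools have a DMC list and the 2 ancestral pools served as comparison. The authors sequenced pooled DNA on SOLiD, aligned with SOCS to Ler and Cvi sequences built from TAIR10, and deposited for each selected pool the cytosines with a p-value of up to 0.05. The p-values are theirs and unadjusted. The test, the coverage minimum and the depth of each pool are not given in the sources used here. The paper describes its SOLiD bisulfite data as a pilot of low coverage. It took its own DMCs from separate Illumina data of individual plants, so the lists described here are not the paper's DMCs. Positions were matched to TAIR10 and counted from 0, since 99.38% to 99.57% then fell on cytosines, and are printed counted from 1. Rows not on a nuclear cytosine were left out.

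Lines were compared by exact permutation tests over populations (3 against 3), and values within a list by exact sign-flip permutation tests over the 6 lists, with Benjamini-Hochberg adjustment over 6 and 7 comparisons. Each population was 1 library, so the spread between populations holds technical error too. Named runs were the 10 with the most DMCs in each line, those in all 6 lists, up to 15 listed in at least 2 lists of each line, and AT1G10610 and PNG1. The members and lists were chosen with earlier results of these data known. Alternatives were a minimum of 3 or 6 CT, a p of 0.005, joined runs, chromosome arms, leaving out the 10 richest runs, and leaving out each landscape; those on runs of both lines and on runs of 10 or more CT were added after seeing the data. Analyses used Python 3.11.15, numpy 2.4.6 and scipy 1.17.1.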

Additional observations from a re-analysis of the deposited data

How the results depend on the processing

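Of 154 alternative values, 117 kept the direction of the result and its side of the threshold or passed it. The tests between lines, and those with a landscape left out, cannot reach 0.05, so for them only the direction could change. The values that did not keep it include the DMC counts of 26 of the 30 named runs, which fell by more than 1.5 times at a p of 0.005. At a minimum of 6 or 3 CT, though not of 4, these had an adjusted p under 0.05, while the exact p of all but the 5′ UTR rate stayed at the smallest possible and only the number of comparisons (6 at 6 CT) or of others at that p differed: the rates against flanks (1.87 points at 6 CT, 0.141 at 3 CT), the equal p-values (−15.6 and −15.5 points), the rates against CA and CTT runs (1.96 and 0.119), the rate of long against short runs (5.64 at 3 CT) and the 5′ UTR rate (0.159 at 3 CT). Reversed were the 5′ UTR rate at 6 CT (−1.11), the line difference in 5′ UTR share at 3 CT (2.49) and at a p of 0.005 (5.39), and the rate on the 5′ against the 3′ side at a p of 0.005 (0.0131), with joined runs (0.00776) and on chromosome arms (0.0411). An upstream window of 500 bp put 3.40% of listed runs upstream, against 6.48% at 1 kb, and at a p of 0.005 18 runs were listed in both lines, against 124. The upstream share and the number of runs in both lines can only fall under these narrower settings. The cause of the reversals was not tested. A p of 0.005 gives no value for the shares of small p-values, and a minimum of 6 CT none for long against short runs.

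Leaving out 1 landscape gave differences between the lines of 4.22 to 7.83 points in share, 37.5 to 110.5 in runs, 2.31 to 3.75 in DMCs per run, 19.4 to 32.3 points in small p-values, −5.31 to −1.75 in 5′ UTR share and −5.36 to 1.18 in the share on the 5′ side. Within lists it gave 0.410 to 0.748 for flanks, 8.71 to 18.2 for small p-values, −21.7 to −13.0 for equal p-values, −0.0191 to 0.00159 for the 2 sides, 4.21 to 7.80 for length, −0.00480 to 0.0653 for 5′ UTRs and 0.406 to 0.751 for CA and CTT runs. These exact permutation tests cannot go below p = 0.125 within lists or 0.333 between lines. With the landscape as a replicate block the line difference in share was 5.62 points (exact permutation p = 0.25, adjusted p = 0.5). The block test cannot go below 0.25, so it could change no call. Same-landscape deviations correlated at −0.0339, 0.0314 and 0.127. The lists hold no depth, so an unlisted cytosine may have been unread.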
